A study of Homo sapiens with 12 samples.

Results

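The mitochondrial ribosomal protein genes were taken as the named genes whose symbol starts with MRPL or MRPS followed by a digit. Of 14884 named genes on the arrays, 78 symbols matched. Of these, 3 were pseudogenes (MRPL42P5, MRPL45P2 and MRPS31P5) and 2 were antisense RNAs (MRPL20-AS1 and MRPL23-AS1), which left 73 protein-coding genes. By the subunit that holds their protein, 50 belong to the large subunit and 23 to the small one. MRPS30 and MRPS18A carry small-subunit names but their proteins sit in the large subunit, and they were counted there. No filter on low values was applied, so all 73 genes were tested.

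RNA was measured in HepG2 cells, a human liver tumour line in which exon 3 is missing from 1 allele of the ß-catenin gene, so that a truncated and a full-length ß-catenin are present together. All 4 groups share this genotype and had 3 arrays each, 12 in all, from RNA collected 120 h after the siRNA. The siCtrl group received a control siRNA, the sißCat-WT group an siRNA against the full-length form, the sißCat-mut group an siRNA against the truncated form, and the sißCat-both group an siRNA against the pair of them. The design asks which genes depend on which form. Each target was addressed by its own siRNA, so an effect of the target and an effect of that siRNA's sequence cannot be told apart. Whether a group's 3 arrays represent independent cultures is not stated in the labels, and every p-value here therefore refers to the variation among these arrays, which could be of technical origin. The targeted gene was not analysed here, so the labels were not checked against it.

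Mitochondrial ribosomes translate the few messenger RNAs of the mitochondrial genome, whose products are core subunits of the respiratory chain and ATP synthase. Their proteins are all encoded in the nucleus, made in the cytosol and imported, whereas their ribosomal RNAs come from mitochondrial DNA. The small subunit binds the messenger RNA and decodes it, and the large subunit joins the amino acids. Part of the proteins have homologues in the bacterial ribosome, and the rest are specific to the mitochondrial ribosome. The members were classed in this way from general knowledge. Truncated ß-catenin without the exon 3 phosphorylation sites escapes degradation and acts with TCF and LEF factors as a transcriptional co-activator, for which MYC is a textbook target.

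The values are log2 intensities after RMA, a method that forces all arrays onto a common intensity distribution. A change shared by most genes would therefore be removed. The mean log2 intensity of the members over the 12 arrays lay between 5.52 and 11.5, with a median of 8.45. The median of all 14884 genes was 6.01, and 70 of the 73 members were above it. The members varied little between arrays of a group, with a median SD of 0.094 against 0.121 for all genes. Since precision and level are linked to how often a gene is called, counts are given below beside all genes and beside the 8427 genes within the members' range of mean level.

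Over the members, the mean log2 intensity per array was 8.456 to 8.498 in siCtrl, 8.32 to 8.42 after sißCat-WT, 8.22 to 8.35 after sißCat-mut and 8.30 to 8.40 after sißCat-both. All 9 knockdown arrays were below the 3 control arrays on this mean. The mean of all genes stayed between 6.10 and 6.14 on every array. The heat map of all members by array shows that the shift was not uniform, since a minority of members rose.

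**Figure D1:**
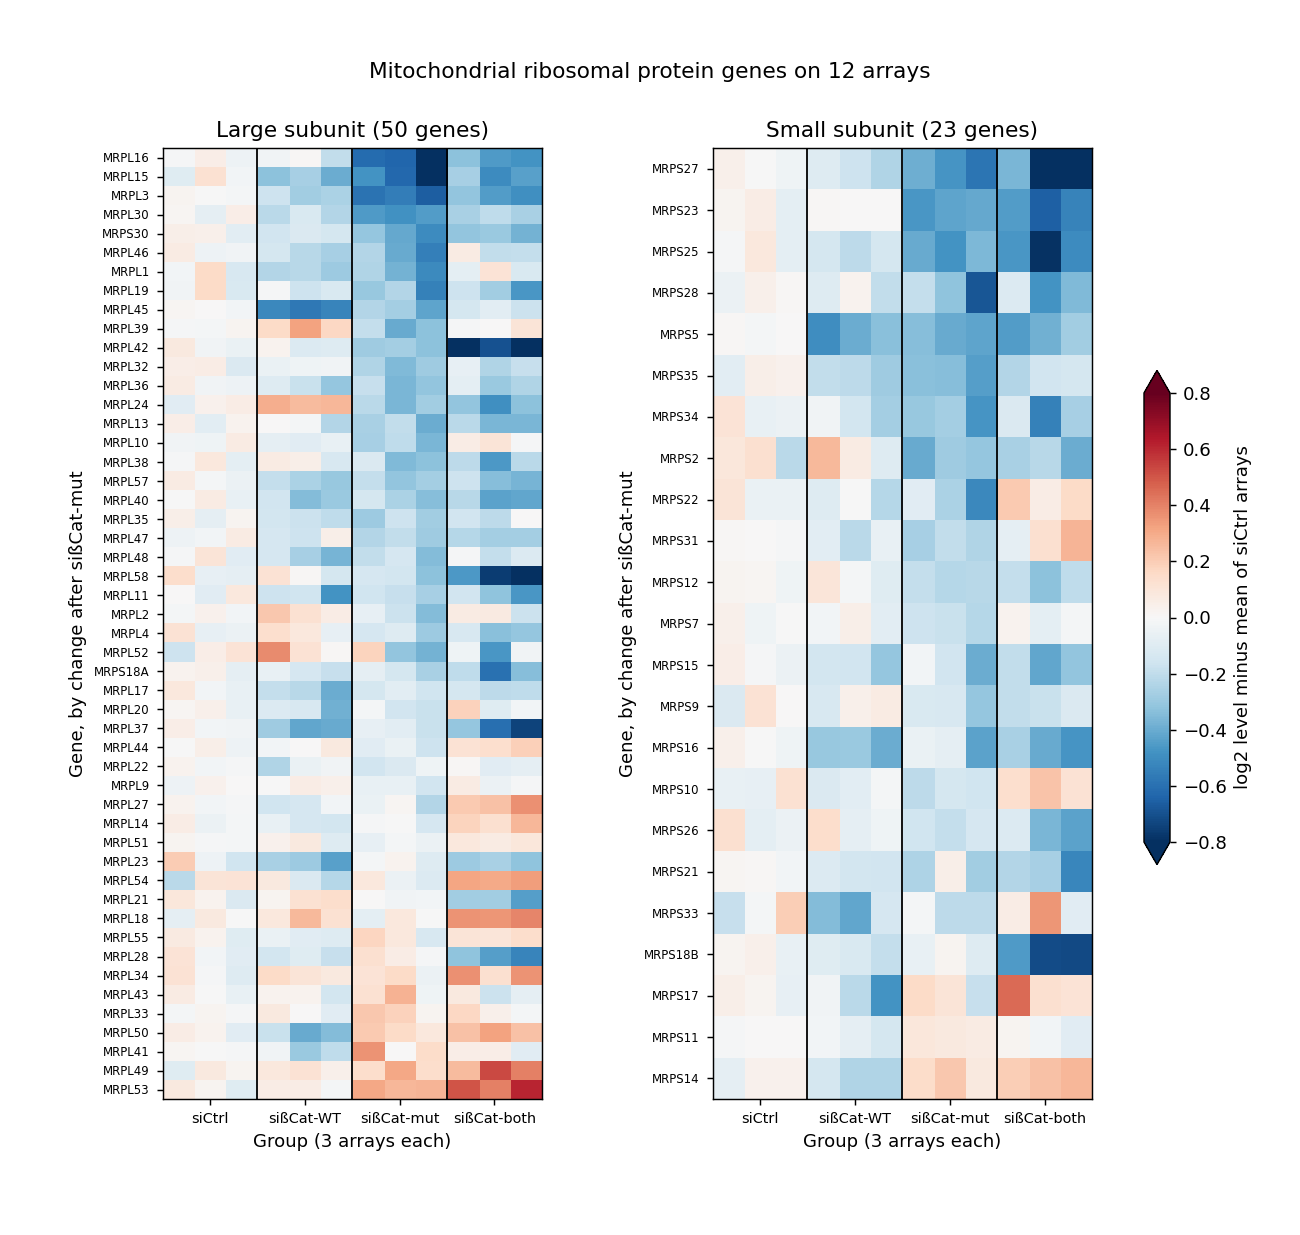
Each row is 1 of the 73 genes, split into the large and the small subunit and ordered by the change after sißCat-mut, and each column is 1 array (3 per group). Colour gives the log2 level minus the mean of the 3 siCtrl arrays, on a scale that ends at -0.8 and 0.8; blue cells dominate after sißCat-mut, and MRPL42, MRPS27, MRPL58 and MRPS18B fell most after sißCat-both.

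Promoter sequences were set beside these genes as a feature that the choice of genes did not use. RefSeq promoter windows (build GRCh38.p14, 250 bases before to 50 after the start) were found for 65 of the 73 members. They were searched on both strands for short letters known from promoters of mitochondrial genes, the ETS, YY1 and NRF1 cores. An E-box and a TCF and LEF core were searched as well, for MYC and for the partners of ß-catenin. A match is a description and not a binding site. The ETS core CCGGAAG, the core read by ETS-family factors such as GABPA (NRF2), was present in 28 member windows, or 43.1%, against 15% of the 10749 windows of tested genes and 10.7% of all 27305 windows. The YY1 core AAGATGGC was present in 19, or 29.2%, against 4.1% of tested genes and 3.03% of all windows. The NRF1 core (GCGCA, any base, then GCGC) was present in 8, or 12.3%, against 8.79% and 6.28%. The E-box CACGTG, which MYC and its partner MAX can read, was present in 5, or 7.69%, against 9.02% and 7.43%. The TCF and LEF core CTTTGAT was in none of the 65 windows, against 1.92% and 2.64%, which says only that these letters are not in these windows. None of the 5 motifs contains another. In all, 39 members had an ETS or a YY1 core, 8 of them both.

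**Figure D2:**
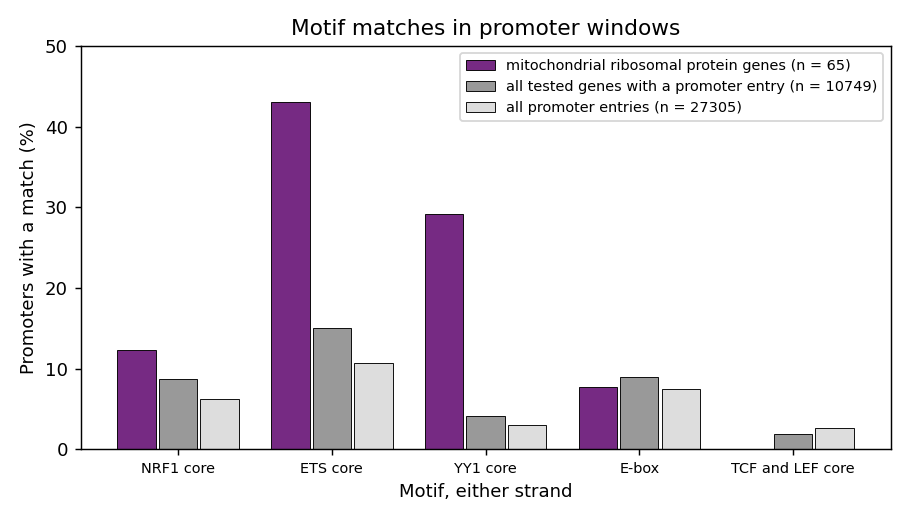
Bars give the percentage of promoter windows of 300 bases with at least 1 match to each motif on either strand, for the 65 members with a window, the 10749 tested genes with a window and all 27305 windows. The ETS core (43.1%) and the YY1 core (29.2%) stand above both backgrounds in the members, and the TCF and LEF core is at 0.

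The YY1 cores lay close to the start. Of 20 matches in 19 genes, 14 began at or after the annotated start, and each of those reads AAGATGGC on the gene's own strand, with the letters ATG inside it. The sites of 7 members described below are shown with 10 bases on either side, 5′ to 3′ on the gene's strand and with the core in capitals. They lie at chr12:93467512-93467539 (plus strand) for MRPL42, chr17:38297171-38297198 (plus strand) for MRPL45, chr15:88467363-88467390 (minus strand) for MRPL46, chr9:101398578-101398605 (minus strand) for MRPL50, chr6:43687765-43687792 (minus strand) for MRPS18A, chr6:30617853-30617880 (plus strand) for MRPS18B and chr5:72320207-72320234 (minus strand) for MRPS27.
MRPL42: ggattgaaacAAGATGGCgggttcgtgg
MRPL45: ttgcgggaacAAGATGGCagcccccata
MRPL46: gggagaacgaAAGATGGCggcgcccgta
MRPL50: gatctcatcgAAGATGGCggcgcgatct
MRPS18A: taggtttttgAAGATGGCggccctcaag
MRPS18B: ggcgtacgtcAAGATGGCggcgtctgta
MRPS27: ggtacgctccAAGATGGCtgcctccata
The core began 8 bases after the start in MRPL42 and in MRPL46, and 23 bases after it in MRPL50 and MRPS18B. These 7 genes did not move alike, as the values below show.

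The ETS cores lay mostly before the start, with 6 of 38 matches at or after it. The 250 bases before the start are shown for MRPL3 and MRPL58, which fell, and for MRPL53, which rose, with ETS cores in capitals (CCGGAAG, or CTTCCGG where the match is on the other strand). The windows are chr3:131502972-131503221 (minus strand) for MRPL3, chr17:75012420-75012669 (plus strand) for MRPL58 and chr2:74472681-74472930 (minus strand) for MRPL53.
MRPL3: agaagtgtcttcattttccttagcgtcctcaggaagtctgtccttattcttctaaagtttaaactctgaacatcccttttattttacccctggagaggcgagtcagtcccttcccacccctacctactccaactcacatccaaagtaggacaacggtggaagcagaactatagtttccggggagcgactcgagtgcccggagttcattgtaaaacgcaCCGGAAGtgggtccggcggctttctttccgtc
MRPL58: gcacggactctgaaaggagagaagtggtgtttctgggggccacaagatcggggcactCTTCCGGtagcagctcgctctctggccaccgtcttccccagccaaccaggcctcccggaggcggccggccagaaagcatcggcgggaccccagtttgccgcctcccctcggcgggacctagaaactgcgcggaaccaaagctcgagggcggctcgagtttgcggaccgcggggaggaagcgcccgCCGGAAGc
MRPL53: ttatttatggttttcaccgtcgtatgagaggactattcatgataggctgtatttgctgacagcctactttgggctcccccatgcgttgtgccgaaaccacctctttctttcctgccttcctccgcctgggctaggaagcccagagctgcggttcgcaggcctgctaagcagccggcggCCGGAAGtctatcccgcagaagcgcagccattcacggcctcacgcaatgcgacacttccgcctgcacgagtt
The core nearest to the start began 32 bases before it in MRPL3 and 8 bases before it in MRPL58. The printed core of MRPL53 began 72 bases before the start. Another MRPL53 core (CTTCCGG), outside the printed stretch, began at the start itself. Genes with and without the ETS core did not separate in one direction. After sißCat-mut 8 of 28 members with it and 16 of 37 without it were called lower, and after sißCat-both 15 of 28 and 13 of 37 were. With the YY1 core, 9 of 19 were called lower after sißCat-mut and 8 of 19 after sißCat-both, against 15 and 20 of the 46 without it. A call here is a limma adjusted p under 0.05 over all genes. Of the genes in the members' range of level, 22.1% were called lower after sißCat-mut and 28.6% after sißCat-both. Calls among other genes with these cores were not counted, and the members' counts were not tested against each other.

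After sißCat-mut, the siRNA against the truncated form, 29 of the 73 members fell and 1 rose. Falls were led by MRPL16, MRPL15 and MRPL3, proteins of the large subunit with bacterial homologues, at 1.52-fold to 1.61-fold, and by MRPS27 of the small subunit. The only member that rose was MRPL53. A gene was called at a limma adjusted p under 0.05 over all genes, and by this rule 13.6% of all genes were called lower and 12% higher. Among the genes in the members' range of level, 22.1% were called lower and 17.8% higher, beside 39.7% and 1.37% of the members. The median log2 change was -0.19 over the members and 0.01 over all genes.

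MRPL16, whose bacterial homologue lies near the peptidyl transferase centre, had log2 levels of 8.29, 8.35 and 8.26 in siCtrl and 7.68, 7.67 and 7.496 after sißCat-mut. All sißCat-mut arrays were below all control arrays, which was a condition for naming a member for its change. Of all genes, 20.6% had every sißCat-mut array below the controls and 20% had every one above. The log2 change of MRPL16 was -0.69 ± 0.08 (SE, n = 3 arrays per group), with a limma adjusted p of 3.23e-05. MRPL16 levels after sißCat-WT were 8.27, 8.31 and 8.11, a range that overlapped the controls (-0.07 ± 0.08, adjusted p = 0.715). After sißCat-both they were 7.97, 7.85 and 7.82, between the controls and sißCat-mut.

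MRPL15, a large-subunit protein with a bacterial homologue, was at 9.17, 9.39 and 9.24 in siCtrl and at 8.79, 8.64 and 8.39 after sißCat-mut. The groups did not overlap, although the sißCat-mut arrays spread more than the controls (SD 0.20 against 0.11). The change was -0.66 ± 0.10 (adjusted p = 0.000307). MRPL3, which in bacteria reaches towards the peptidyl transferase centre, was at 9.67, 9.65 and 9.64 in siCtrl and at 9.06, 9.10 and 8.99 after sißCat-mut. Its arrays were tight in both groups and the change was -0.60 ± 0.07 (adjusted p = 3.03e-05).

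MRPS27, a pentatricopeptide repeat protein of the small subunit without a bacterial homologue, was at 8.05, 8.005 and 7.98 in siCtrl and at 7.62, 7.54 and 7.43 after sißCat-mut. All treated arrays were lower, by -0.48 ± 0.11 (adjusted p = 0.00612). MRPL53, a large-subunit protein specific to mitochondria, went the other way, from 9.04, 8.99 and 8.87 in siCtrl to 9.28, 9.23 and 9.24. The groups did not overlap, and the rise was 0.28 ± 0.07 (adjusted p = 0.0124). Without siCtrl replicate 3, the lowest control array for this gene, the MRPL53 rise was 0.23 and no longer called (adjusted p = 0.0649).

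By role, the falls after sißCat-mut were spread over all classes. Of the 29 large-subunit members with bacterial homologues 13 fell and none rose. Of the 21 large-subunit members without one, 7 fell and 1 rose. In the small subunit, 4 of 13 members with bacterial homologues and 5 of 10 without one fell, and none rose. The median log2 change was largest in size in the last class, at -0.32, against -0.19, -0.17 and -0.19 in the other classes in that order. The differences between classes were not tested. Without sißCat-mut replicate 3 the number of members called went from 30 to 18, of which 17 fell, and all 18 were among the 30. How far calls over all genes dropped with it is not given here.

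**Figure D3:**
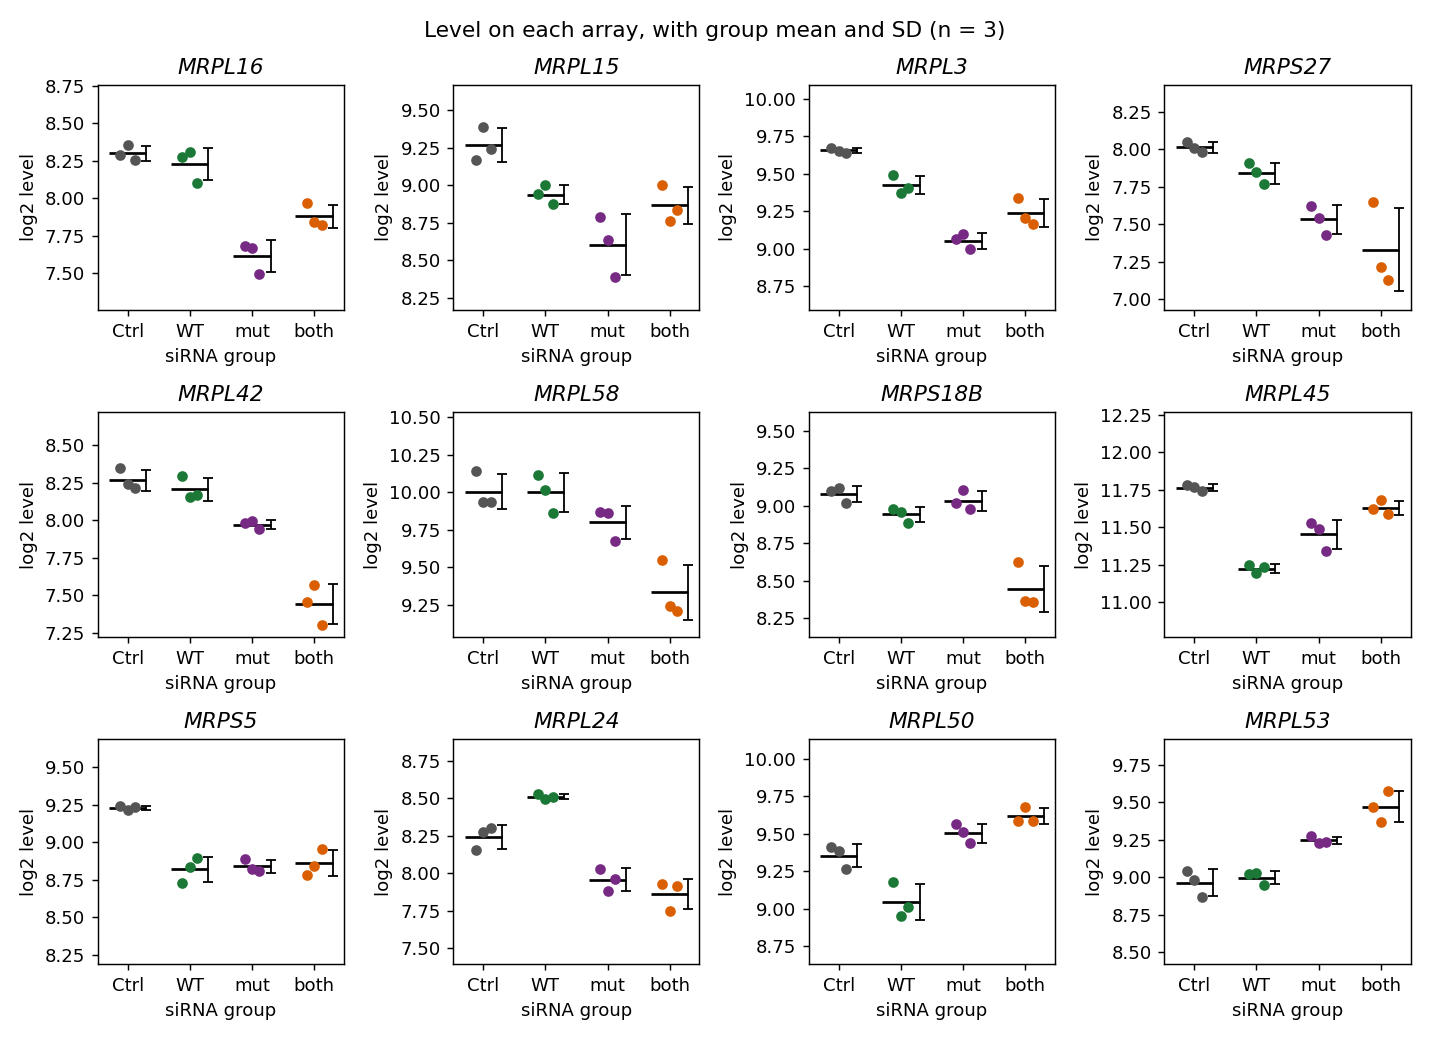
Points are the log2 levels of 12 members on the 3 arrays of each siRNA group (Ctrl, WT, mut, both), with the group mean as a bar and the SD as an error bar; every panel spans 1.5 log2 units. MRPL16, MRPL15 and MRPL3 are lowest after sißCat-mut, MRPL42, MRPS27, MRPL58 and MRPS18B after sißCat-both, and MRPL45 after sißCat-WT.

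After sißCat-both, the siRNA against the pair of forms, 32 members fell and 8 rose. MRPL42, MRPS27, MRPL58 and MRPS18B fell most, by 1.55-fold to 1.77-fold, and all of them were classed as specific to the mitochondrial ribosome. MRPL53, MRPL49, MRPL18 and MRPL54 of the large subunit rose most, by 1.25-fold to 1.42-fold. Over all genes 18.1% were called lower and 15.5% higher, and within the members' range of level 28.6% and 22.3%, beside 43.8% and 11% of the members. The median log2 change was -0.18 over the members and -0.01 over all genes. Under renewed quantile normalization 26 fell and 11 rose.

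MRPL42 was at 8.34, 8.24 and 8.21 in siCtrl and at 7.45, 7.57 and 7.30 after sißCat-both. This was the largest fall among the members in this comparison, and no arrays overlapped. The change was -0.82 ± 0.08 (limma adjusted p = 3.4e-06). After sißCat-mut MRPL42 was at 7.98, 7.99 and 7.94, a smaller fall of -0.29 ± 0.08 (adjusted p = 0.0153), and after sißCat-WT its arrays, at 8.29, 8.15 and 8.16, overlapped the controls.

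MRPL58, an integral large-subunit protein that can also release peptides from stalled ribosomes, was at 10.14, 9.94 and 9.93 in siCtrl and at 9.55, 9.24 and 9.21 after sißCat-both. Its fall was -0.67 ± 0.11 (adjusted p = 0.000202), with no overlap. MRPS18B was at 9.10, 9.12 and 9.02 in siCtrl and at 8.62, 8.36 and 8.36 after sißCat-both. It fell by 0.63 ± 0.08 on the log2 scale (adjusted p = 4.19e-05), while after sißCat-mut its arrays, at 9.02, 9.10 and 8.98, overlapped the controls (-0.05 ± 0.08, adjusted p = 0.762).

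MRPS27 was at 7.65, 7.22 and 7.13 after sißCat-both, all below its 3 control arrays, with a change of -0.68 ± 0.11 (adjusted p = 0.000315). In MRPS27, MRPL58 and MRPS18B the first sißCat-both array was nearer to the controls than the other two. Without that array the changes were -0.84, -0.78 and -0.72 in the same order, and all 3 were still called.

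Of the members that rose, MRPL53 reached 9.47, 9.37 and 9.57 after sißCat-both, above every array of the other groups (0.50 ± 0.07 against siCtrl, adjusted p = 0.000125). MRPL49, a mitochondrion-specific protein of the large subunit, was at 8.98, 9.15 and 9.10 in siCtrl and at 9.33, 9.60 and 9.48 (0.39 ± 0.09, adjusted p = 0.00229). MRPL18, whose bacterial homologue binds 5S ribosomal RNA, was at 8.57, 8.72 and 8.64 in siCtrl and at 9.01, 9.0 and 9.04 (0.37 ± 0.08, adjusted p = 0.00152). None of these groups overlapped. After sißCat-mut MRPL18 stood at 8.57, 8.73 and 8.64, which gave a change of 0.00 ± 0.08.

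MRPL54, a large-subunit protein of low intensity on these arrays, was at 5.91, 6.23 and 6.24 in siCtrl and at 6.44, 6.43 and 6.46 after sißCat-both. The treated arrays were nearly equal and above the controls, whose first array was low. The rise was 0.32 ± 0.10 (adjusted p = 0.0273), and without siCtrl replicate 1 it was 0.21 with an adjusted p of 0.136. It also lost its call without any of the 3 sißCat-both arrays (adjusted p = 0.0526 to 0.0673) and with array weights (adjusted p = 0.0569). By role, 13 of 29 large-subunit members with bacterial homologues fell and 3 rose, 8 of 21 without one fell and 4 rose, 5 of 13 small-subunit members with bacterial homologues fell and 1 rose, and 6 of 10 without one fell and none rose.

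After sißCat-WT, the siRNA against the full-length form, 7 members fell and 1 rose. The largest fall was that of MRPL45, at 1.45-fold, followed by MRPS5 at 1.33-fold, and MRPL24 was the member that rose, at 1.21-fold. Over all genes 4.97% were called lower and 5.2% higher, and within the members' range of level 8.07% and 7.76%, beside 9.59% and 1.37% of the members. The share of members called lower was thus near that of genes of like level. The median log2 change was -0.11 over the members and 0.01 over all genes, and 57 of the 73 changes were below 0.

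MRPL45, which in the mitochondrial ribosome lies at the exit of the peptide tunnel and contacts the inner membrane, was at 11.78, 11.77 and 11.74 in siCtrl and at 11.24, 11.19 and 11.23 after sißCat-WT. Both sets of arrays were tight and did not overlap, and the change was -0.54 ± 0.07 (limma adjusted p = 0.000271). After sißCat-mut MRPL45 was at 11.53, 11.49 and 11.34 (-0.31 ± 0.07, adjusted p = 0.00415), and after sißCat-both at 11.62, 11.68 and 11.59 (-0.13 ± 0.07, adjusted p = 0.17). MRPL45 has a related pseudogene, and its values are uncertain to the extent that probes read both. The probe set named MRPL45P2 changed by -0.30 ± 0.13 after sißCat-WT (adjusted p = 0.173).

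MRPS5, a small-subunit protein with a bacterial homologue, was at 9.24, 9.21 and 9.23 in siCtrl. It was at 8.73, 8.83 and 8.89 after sißCat-WT, at 8.89, 8.82 and 8.80 after sißCat-mut and at 8.78, 8.84 and 8.95 after sißCat-both. The 3 knockdown groups overlapped one another and all lay below the controls. The changes were -0.41 ± 0.07, -0.39 ± 0.07 and -0.37 ± 0.07 (adjusted p = 0.00235, 0.00111 and 0.00109), and MRPS5 was the single member called lower in all 3 comparisons with siCtrl.

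MRPL37 of the large subunit was at 10.69, 10.61 and 10.61 in siCtrl and at 10.35, 10.22 and 10.23 after sißCat-WT (-0.37 ± 0.10, adjusted p = 0.0277). MRPS16 of the small subunit was at 10.15, 10.11 and 10.08 in siCtrl and at 9.81, 9.81 and 9.72 (-0.33 ± 0.10, adjusted p = 0.0478). MRPL24, whose bacterial homologue starts the assembly of the large subunit, was at 8.15, 8.27 and 8.30 in siCtrl and at 8.53, 8.497 and 8.51 after sißCat-WT. Its arrays did not overlap either, and the rise was 0.27 ± 0.08 (adjusted p = 0.0382). MRPL24 was called lower in the other knockdowns, at 8.03, 7.88 and 7.96 after sißCat-mut (-0.29 ± 0.08, adjusted p = 0.0123) and at 7.93, 7.75 and 7.92 after sißCat-both (-0.38 ± 0.08, adjusted p = 0.0013). MRPL50 also had opposite calls, lower after sißCat-WT (-0.31 ± 0.08, adjusted p = 0.0238) and higher after sißCat-both (0.26 ± 0.08, adjusted p = 0.0186).

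These calls after sißCat-WT were close to the threshold. Without siCtrl replicate 1, siCtrl replicate 2, sißCat-WT replicate 2 or sißCat-WT replicate 3 only 2 members were called, and without siCtrl replicate 3 there were 4. The share of all genes called without these arrays is not given here, so the drop cannot be read as particular to the members. The rise of MRPL24 was not called without any of the 3 siCtrl or 3 sißCat-WT arrays (adjusted p = 0.0626 to 0.152), nor with arrays centred on their medians (adjusted p = 0.0581). MRPL37 was not called without any of the 3 siCtrl arrays or sißCat-WT replicates 2 and 3 (adjusted p = 0.0657 to 0.101). MRPS16 was not called without any of these 6 arrays (adjusted p = 0.085 to 0.158), without sißCat-mut replicate 2 or sißCat-both replicate 2 (adjusted p = 0.0512 and 0.056), or with the mean of its probe sets (adjusted p = 0.0716). MRPL45 and MRPS5 stayed called in each of the alternatives tried.

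The calls in the comparisons with siCtrl, which share the control arrays, can be set side by side. Lower calls after sißCat-mut and after sißCat-both but not after sißCat-WT were made for 16 members, among them MRPL3, MRPL15, MRPL16, MRPL42 and MRPS27. There were 10 members called lower after sißCat-mut alone, among them MRPL1, MRPL10, MRPL46, MRPS28 and MRPS35. After sißCat-both alone 11 were called lower, among them MRPL58, MRPS18A and MRPS18B, and 6 were called higher, which were MRPL18, MRPL27, MRPL34, MRPL49, MRPL54 and MRPS14. A call in one comparison and not in another does not show a difference, which the direct comparisons below test. In none of the 3 were 21 members called. Of the genes in the members' range of level, 22.1% were called lower after sißCat-mut and 28.6% after sißCat-both. The share of all genes with each of these patterns was not computed, so the counts cannot be read as particular to the members. The smallest changes were those of MRPL51, a large-subunit protein, at 8.52, 8.49 and 8.48 in siCtrl, 8.53, 8.57 and 8.39 after sißCat-WT, 8.43, 8.48 and 8.45 after sißCat-mut and 8.58, 8.56 and 8.59 after sißCat-both.

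Between the single knockdowns, 15 members were lower after sißCat-mut than after sißCat-WT and 6 were higher. Over all genes 17% were called lower and 14% higher, and within the members' range of level 26.9% and 20.7%, beside 20.5% and 8.22% of the members, so neither share of the members stood above genes of like level. MRPL16 was lower after sißCat-mut by 0.61 ± 0.08 on the log2 scale (limma adjusted p = 5.31e-05) and MRPL24 by 0.55 ± 0.08 (adjusted p = 6.73e-05). MRPL50, a mitochondrion-specific large-subunit protein, was at 9.18, 8.95 and 9.01 after sißCat-WT and at 9.56, 9.51 and 9.44 after sißCat-mut. The groups did not overlap and lay on either side of the control arrays, at 9.41, 9.38 and 9.26, and the difference was 0.46 ± 0.08 (adjusted p = 0.000471).

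MRPS14, a small-subunit protein with a bacterial homologue, was at 8.17, 8.07 and 8.08 after sißCat-WT and at 8.46, 8.53 and 8.39 after sißCat-mut, a difference of 0.35 ± 0.07 (adjusted p = 0.00123). Its siCtrl arrays, at 8.25, 8.35 and 8.35, lay between the groups. Without sißCat-WT replicate 2 the number of members called in this comparison was 13 in place of 21, and the count over all genes is not given here. With quantile normalization renewed, 11 members were lower and 8 higher.

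Between sißCat-both and sißCat-WT, 15 members were lower and 12 higher after sißCat-both, beside 20.1% and 16.1% of all genes. Within the members' range of level 30.8% and 23.2% were called, and the members' 20.5% and 16.4% were below that. MRPL50 was at 9.59, 9.68 and 9.59 after sißCat-both, 0.57 ± 0.08 above sißCat-WT (adjusted p = 5.28e-05), and MRPL53 was 0.47 ± 0.07 above it (adjusted p = 0.000181). MRPL42 was lower by 0.76 ± 0.08 on the log2 scale (adjusted p = 4.81e-06) and MRPL58 by 0.67 ± 0.11 (adjusted p = 0.00018). The split between lower and higher moved with the scaling, to 16 lower and 18 higher with quantile normalization renewed.

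Between sißCat-both and sißCat-mut the split turned, with 15 members higher and 6 lower after sißCat-both, beside 10.6% and 11.6% of all genes. Within the members' range of level 15.9% and 17.7% were called, beside 20.5% and 8.22% of the members. The median log2 difference was 0.07 over the members and -0.02 over all genes. MRPS22, a mitochondrion-specific small-subunit protein, was at 7.36, 7.20 and 6.93 after sißCat-mut and at 7.66, 7.51 and 7.60 after sißCat-both, a difference of 0.43 ± 0.10 (adjusted p = 0.00904). The groups did not overlap, and the controls, at 7.55, 7.40 and 7.40, lay mostly between them. MRPL18 was higher by 0.37 ± 0.08 (adjusted p = 0.00296). MRPS18B was lower after sißCat-both by 0.58 ± 0.08 on the log2 scale (adjusted p = 0.000195), and MRPL42 by 0.53 ± 0.08 (adjusted p = 0.000362).

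The departure from additivity sets the change after sißCat-both against the sum of the changes after sißCat-WT and sißCat-mut. It was called in 20 members, 16 of them higher than the sum and 4 lower, beside 7.6% and 8.79% of all genes. Within the members' range of level 11.8% and 13.3% were called, beside 21.9% and 5.48% of the members. The median departure was 0.16 over the members and -0.02 over all genes. For MRPL45 the single changes summed to -0.85 while the change after sißCat-both was -0.13, a departure of 0.72 ± 0.10 (limma adjusted p = 0.000284). The pseudogene probe set MRPL45P2 departed the same way, by 0.64 ± 0.18 (adjusted p = 0.0252).

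MRPL1, the homologue of the bacterial L1 stalk protein, was at 6.44, 6.61 and 6.33 in siCtrl, 6.23, 6.24 and 6.18 after sißCat-WT, 6.23, 6.09 and 5.95 after sißCat-mut and 6.39, 6.57 and 6.34 after sißCat-both. It was low in the single knockdowns and overlapped the controls after sißCat-both, and the departure was 0.59 ± 0.13 (adjusted p = 0.00815). MRPL42 and MRPS18B departed downwards, by -0.47 ± 0.11 (adjusted p = 0.0128) and -0.45 ± 0.12 (adjusted p = 0.0179), with sums of -0.35 and -0.18.

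**Figure D4:**
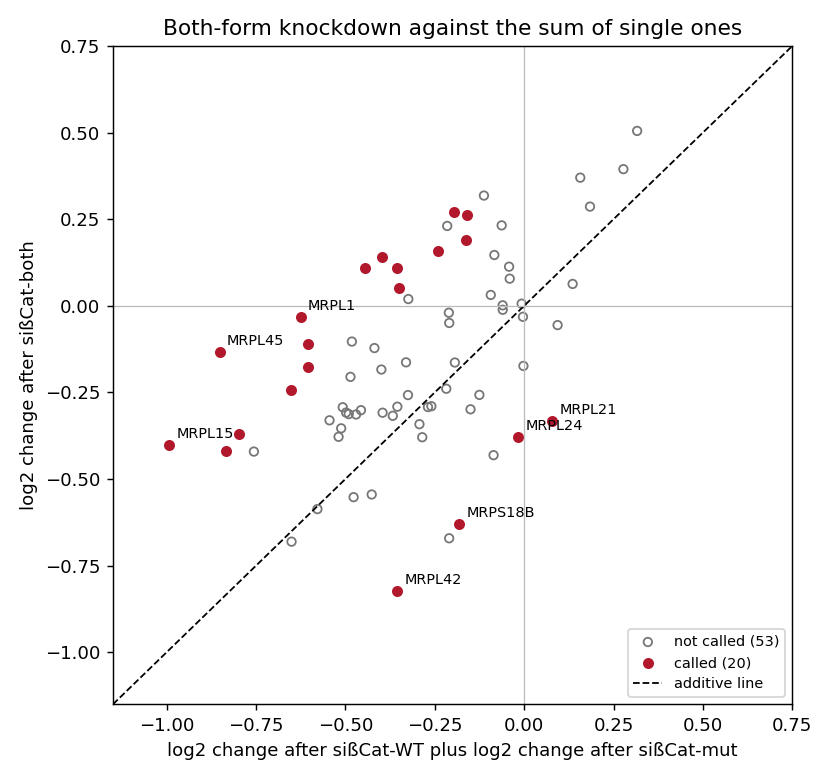
Each point is 1 of the 73 genes, with the summed log2 changes after sißCat-WT and sißCat-mut on the horizontal axis and the log2 change after sißCat-both on the vertical axis; the dashed line marks additive changes. Of the 20 called genes (filled), 16 lie above the line, MRPL45 and MRPL1 among them, and 4 lie below it, MRPL42 and MRPS18B among them.

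The 3 paralogues related to bacterial S18 could be compared in part, since MRPS18C was not analysed here. MRPS18A and MRPS18B resemble S18 in sequence but were classed as specific to mitochondria, because MRPS18C takes the place of S18. MRPS18A was at 10.77, 10.79 and 10.67 in siCtrl, 10.69, 10.61 and 10.56 after sißCat-WT, 10.67, 10.60 and 10.48 after sißCat-mut and 10.54, 10.15 and 10.40 after sißCat-both. It fell after sißCat-both by 0.38 ± 0.10 on the log2 scale (adjusted p = 0.0067) and was not called after the single knockdowns, the same calls as for MRPS18B. For MRPS18B 7 probe sets carry the symbol with identical values, so they are 1 measurement. MRPL44, MRPS2 and MRPS16 had 2 probe sets each, of which the one with the higher mean was used.

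At the ends of the intensity range, MRPL23 had a mean of 5.52 and was at 5.88, 5.64 and 5.52 in siCtrl, 5.42, 5.39 and 5.25 after sißCat-WT, 5.66, 5.71 and 5.58 after sißCat-mut and 5.39, 5.42 and 5.36 after sißCat-both. It fell after sißCat-WT (-0.33 ± 0.09, adjusted p = 0.0372) and sißCat-both (-0.29 ± 0.09, adjusted p = 0.0237), without overlap. MRPL22, with a mean of 5.92, ranged over all 12 arrays from 5.74 to 6.02 and was not called in any comparison. MRPL34, the member with the highest intensity after MRPL45, was at 10.75, 10.63 and 10.53 in siCtrl and at 11.004, 10.76 and 10.998 after sißCat-both (0.29 ± 0.09, adjusted p = 0.0219). Intensities of different probe sets are not comparable as amounts of RNA.

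The cytosolic ribosomal and the respiratory chain genes were set beside these genes. Of all genes, 13.6% were called lower and 12% higher after sißCat-mut, 18.1% and 15.5% after sißCat-both, and 4.97% and 5.2% after sißCat-WT. Of 52 cytosolic ribosomal protein genes measured, 39 fell and none rose after sißCat-mut, with a median log2 change of -0.36, and 37 fell and none rose after sißCat-both, with a median of -0.36. After sißCat-WT 1 rose and none fell, with a median of -0.06. These 52 do not cover all cytosolic ribosomal proteins, and they include related genes such as RPL3L, RPL10L, RPL39L and RPS27L. Of 24 respiratory chain and ATP synthase genes, 1 fell and 1 rose after sißCat-mut (median 0.06), 3 fell and 2 rose after sißCat-both (median -0.02), and 1 fell after sißCat-WT (median -0.04). This list covers only a part of the respiratory chain. It held no NDUF or SDH gene, its only ATP synthase genes were ATP5MJ and ATP5MK, and the rest were CYC1, COX and UQCR genes. The COX genes included the isoforms COX4I2, COX6A2, COX6B2, COX7A1, COX7B2 and COX8C. Whether each of them is expressed in these cells was not examined. The members' medians of -0.19 after sißCat-mut and -0.18 after sißCat-both lay between those of the other lists, whereas after sißCat-WT their median of -0.11 was below both. The lists were not matched for level, and the differences between them were not tested.

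**Figure D5:**
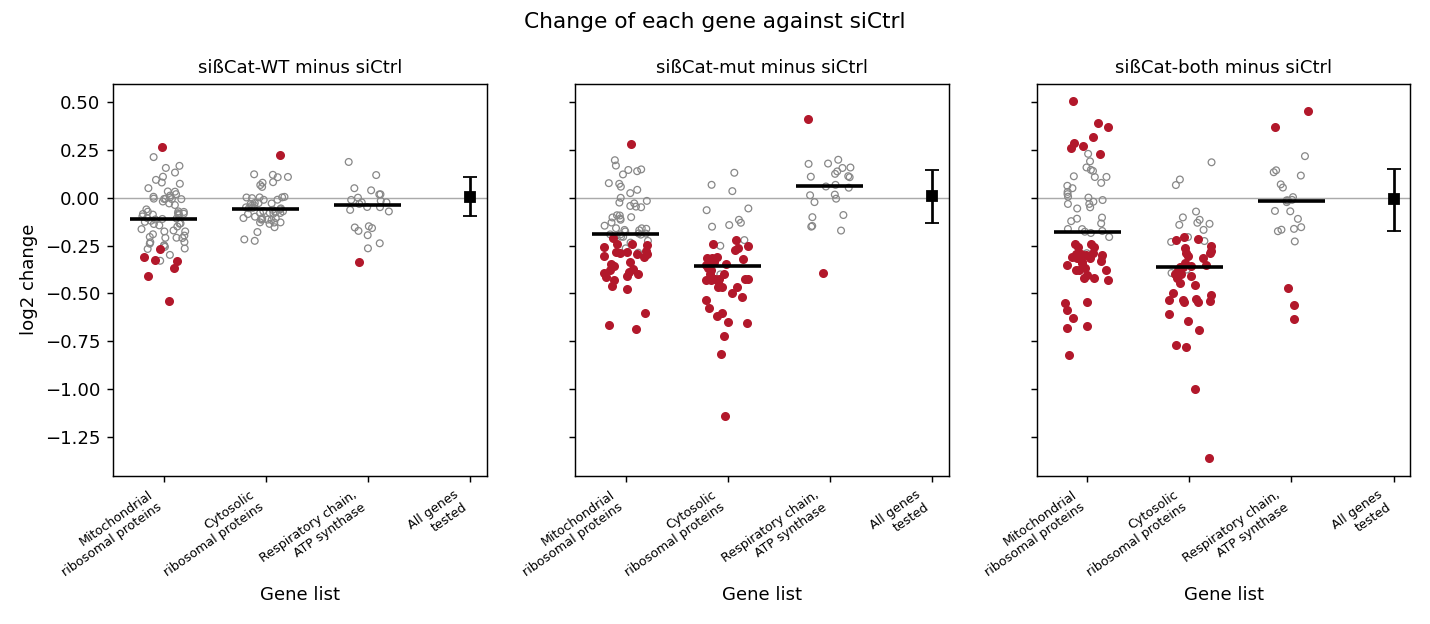
Points are log2 changes against siCtrl of the 73 mitochondrial ribosomal, 52 cytosolic ribosomal and 24 respiratory chain and ATP synthase genes, filled where called, with the list median as a bar; the square and whiskers give the median and quartiles of all 14884 genes. After sißCat-mut the medians are -0.19, -0.36 and 0.06 for the 3 lists and 0.01 for all genes. The respiratory chain list holds no NDUF or SDH gene, and the lists were not matched for level.

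The machinery around the mitochondrial ribosome was described from lists of its other parts. Beside the counts of these lists stand 13.6% of all genes called lower and 12% higher after sißCat-mut. For sißCat-both these shares were 18.1% and 15.5%, and for sißCat-WT 4.97% and 5.2%. The 3 measured mitochondrial ribosomal proteins with other symbols all fell after sißCat-both: DAP3, a GTP-binding small-subunit protein, by 0.29 ± 0.09, PTCD3 by 0.31 ± 0.07 and CHCHD1 by 0.57 ± 0.11 on the log2 scale (limma adjusted p = 0.0267, 0.00283 and 0.000776). After sißCat-mut DAP3 and PTCD3 fell and CHCHD1 did not pass the test (-0.08 ± 0.11). None of the 3 was called after sißCat-WT.

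Of 21 measured genes of ribosome assembly and ribosomal RNA modification, 9 fell and none rose after sißCat-mut, 9 fell and 3 rose after sißCat-both, and 2 rose after sißCat-WT. MRM1, which methylates the large ribosomal RNA, was at 7.59, 7.65 and 7.67 in siCtrl, 7.82, 8.13 and 8.05 after sißCat-WT, 6.51, 6.55 and 6.52 after sißCat-mut and 6.495, 6.71 and 6.67 after sißCat-both. It rose after sißCat-WT (0.36 ± 0.09, adjusted p = 0.0176) and fell by about 2-fold after the others, by 1.11 ± 0.09 and 1.01 ± 0.09 on the log2 scale (adjusted p = 9.62e-07 and 1.11e-06). MTERF4, which targets an RNA methyltransferase to the large subunit, rose after sißCat-both by 1.16 ± 0.12 (adjusted p = 4.34e-06) and was not called after the single knockdowns. RPUSD4, a pseudouridine synthase, and RBFA, a small-subunit assembly factor, fell after sißCat-both by 0.62 ± 0.09 and 0.54 ± 0.09 (adjusted p = 0.000147 and 0.00043).

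Of 11 translation factors and messenger RNA binding proteins, 5 fell after sißCat-mut, and 2 fell and 2 rose after sißCat-both. The shares after sißCat-both, 18.2% in each direction, were near the 18.1% called lower and 15.5% called higher over all genes. LRPPRC, which with SLIRP stabilises mitochondrial messenger RNAs, was at 11.08, 11.11 and 11.18 in siCtrl and at 10.41, 10.26 and 10.34 after sißCat-mut (-0.79 ± 0.07, adjusted p = 1.74e-06), and changed by -0.58 ± 0.07 after sißCat-both (adjusted p = 1.44e-05). SLIRP fell with it, by 0.25 ± 0.08 and 0.38 ± 0.08 (adjusted p = 0.0229 and 0.00134). The release factor relative MTRFR and the translational activator TACO1 rose after sißCat-both by 0.39 ± 0.09 and 0.32 ± 0.10 (adjusted p = 0.00515 and 0.0232). Of the 2 measured genes of aminoacyl-tRNA synthesis both fell after sißCat-mut, and 1 of them, QRSL1, fell after sißCat-both.

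Mitochondrial DNA transcription and maintenance had 3 measured genes. POLRMT, the mitochondrial RNA polymerase, fell by 0.36 ± 0.11 after sißCat-mut and by 0.999 ± 0.11 after sißCat-both (adjusted p = 0.0226 and 6.67e-06), and TWNK, the DNA helicase, by 1.21 ± 0.13 and 0.86 ± 0.13 (adjusted p = 9.7e-06 and 0.000107). MTERF1 rose after sißCat-both by 0.32 ± 0.10 (adjusted p = 0.0222). Of 21 genes of protein import, 13 fell after sißCat-mut, 8 fell and 1 rose after sißCat-both, and 3 fell after sißCat-WT. Examples are the receptor TOMM20, with -0.69 ± 0.09 after sißCat-mut (adjusted p = 6.57e-05), TIMM50 of the inner membrane translocase and the processing peptidase subunit PMPCA, with -0.48 ± 0.08 and -0.57 ± 0.08 after sißCat-mut (adjusted p = 0.000535 and 9.95e-05), and TOMM5, with -0.58 ± 0.09 after sißCat-WT (adjusted p = 0.000889). After sißCat-both, the comparison by which they were named, the changes were smaller in size. They were -0.65 for TOMM20, -0.38 for TIMM50, -0.44 for PMPCA and -0.43 for TOMM5.

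Among 4 measured nuclear regulators, MYC was at 9.39, 9.31 and 9.33 in siCtrl and at 9.35, 9.29 and 9.42 after sißCat-WT. It was at 6.99, 6.91 and 6.81 after sißCat-mut and at 7.08, 6.66 and 6.58 after sißCat-both, falls of 5.44-fold and 5.95-fold (adjusted p = 1.04e-08 and 2.95e-09). The part of MYC in the changes of the members was not tested.

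Some members share a divergent promoter region with a neighbour. RefSeq start sites on the opposite strand within 1000 bases upstream gave 20 such pairs for 20 members, of which 9 pairs were measured on both sides, 1 of them a pair of members. In the other 8 the member was called in 4 after sißCat-mut, the partner in 5 and both in 4, each time in the same direction. After sißCat-both these counts were 7, 4 and 3. Of the genes in the members' range of level, 39.9% were called in either direction after sißCat-mut and 50.8% after sißCat-both. MRPS27 fell after sißCat-mut together with PTCD2, whose start is 133 bases away (-0.44 ± 0.15, adjusted p = 0.0453). In the same comparison MRPL57 fell by 0.26 (adjusted p = 0.0222) together with SKA3 at 106 bases (-0.79 ± 0.13, adjusted p = 0.00042). MRPL50 was not called after sißCat-mut (0.15 ± 0.08, adjusted p = 0.207), while its partner ZNF189 at 233 bases rose by 1.08 ± 0.07 (adjusted p = 1.57e-07). Both genes of this pair rose after sißCat-both, MRPL50 by 0.26 and ZNF189 by 1.45 ± 0.07 (limma adjusted p = 0.0186 and 5.57e-09).

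In 1 case both genes of a pair are members. MRPL46 of the large subunit and MRPS11 of the small subunit start 320 bases apart on opposite strands of chromosome 15. MRPL46 was at 9.34, 9.23 and 9.24 in siCtrl and at 9.04, 8.87 and 8.73 after sißCat-mut (-0.39 ± 0.09, adjusted p = 0.00671), whereas MRPS11 was at 9.32, 9.34 and 9.33 and at 9.42, 9.41 and 9.39 (0.08 ± 0.07, adjusted p = 0.465). The MRPS11 arrays were all slightly above the controls, but the change did not pass the test.

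The cell type was checked by markers. The 8 measured hepatocyte markers had mean log2 levels of 9.70 to 13.3, and of 7 measured markers of fibroblasts, leucocytes and endothelium 5 were below the median of all genes. LYZ, a leucocyte marker, was at 12.7 in siCtrl and fell by 1.13 ± 0.09 after sißCat-both (adjusted p = 5.94e-07). Of the hepatocyte markers 7 rose after sißCat-mut and 8 after sißCat-both, while 2 fell after sißCat-WT. After sißCat-both FGB rose by 1.27 ± 0.09, TTR by 0.91 ± 0.07, APOA1 by 0.77 ± 0.08 and ALB by 0.46 ± 0.06 (adjusted p = 2.59e-07, 3.06e-07, 4.1e-06 and 8.65e-05). Of the other markers 2 rose and 1 fell after sißCat-mut and after sißCat-both, and 1 rose after sißCat-WT. CD14 rose by 0.70 ± 0.12 and VWF by 0.37 ± 0.10 after sißCat-both (adjusted p = 0.000371 and 0.00863). Their part in the members' changes was not tested. All samples are of 1 cell line, and in bulk RNA a change in some of its cells and a change in all of them cannot be told apart.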

How the data were processed

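Total RNA of 12 HepG2 samples was measured on Affymetrix arrays. For 53617 probe sets the deposited values are on a log2 scale. The submitters' processing notes name RMA and Affymetrix Expression Console 1.1 for this step by the authors. Of these probe sets 16098 had 1 gene symbol in the platform annotation and 37519 were unnamed. Where a symbol had several probe sets, the brightest on average was kept, which gave 14884 genes.

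A model with a mean for each of the 4 groups was fitted to all 12 arrays by lmFit and eBayes of limma 3.58.1 under R 4.3.3, which left 8 residual degrees of freedom. In each of 7 contrasts two-sided p-values were adjusted over all genes by Benjamini-Hochberg, and an adjusted p under 0.05 counted as a call. Errors of changes are standard errors of the fit, from a variance shared by the 4 groups and moderated across genes by eBayes. They refer to the variation among these arrays, 3 per group. The steps were tested on simulated data. Figures used matplotlib 3.10.9 in Python 3.11.15.

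The members and the lists were chosen with earlier results of these data known. Values per array are given for the 4 highest and 4 lowest changes among called members without overlap in each knockdown against siCtrl, for 2 in each direction in the other contrasts, for the S18 paralogues, for the ends of the intensity range, and for the smallest summed change. Lack of overlap was thus a condition for naming members in the contrasts between groups, and it is no further evidence for their changes. Over all genes, every array lay below siCtrl in 14.8% after sißCat-WT, 20.6% after sißCat-mut and 23.1% after sißCat-both. The shares above siCtrl were 15.5%, 20% and 20.7%. From each other list up to 4 called genes with the largest change after sißCat-both were named. Members named for a shared promoter were added after their values were seen. Alternatives were other normalizations, probe set rules, filters, priors and weights, arrays left out, and the replicate number as a block. The titles number the arrays 1 to 3 in each group. Deviations from the group means of same-numbered arrays correlated above 0.1 in all 3 pairs for sißCat-both and sißCat-WT alone (0.115, 0.155 and 0.134). Arrays of different number were not compared, so these values do not show a pairing, and the labels state none.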

Additional observations from a re-analysis of the deposited data

Results flagged for a closer look

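The change after sißCat-both differed from the sum of the changes after sißCat-WT and sißCat-mut in the members called for a departure from additivity by limma. The 2 highest and the 2 lowest departures are given. The departure was 0.72 for MRPL45 (adjusted p = 0.000284) and 0.59 for MRPL1 (adjusted p = 0.00815), where the change after sißCat-both was smaller than the sum of the single ones. It was -0.47 for MRPL42 (adjusted p = 0.0128) and -0.45 for MRPS18B (adjusted p = 0.0179), where it was larger in size. The design text names an siRNA for each of the 3 knockdown groups and does not say whether sißCat-both shares sequences with the others. A dependence of 1 form's effect on the other form and a difference between the siRNAs therefore cannot be told apart.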

How the results depend on the processing

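Each count of called members and each of 34 named changes was recomputed under 22 alternatives. Of 744 values of named changes, 716 kept their direction and call, 28 kept the direction and lost the call, and 0 reversed. The lost calls concerned MRPL24, MRPL37 and MRPS16 after sißCat-WT, MRPL53 after sißCat-mut and MRPL54 after sißCat-both. The count after sißCat-WT, 8 in the report, was 15 with array weights, 15 without genes under the 40th percentile, 14 with a trended prior, and 2 to 12 with 1 array left out. With 1 array left out, the count after sißCat-mut was 18 to 31 and that between the single knockdowns 13 to 23. The other counts stayed within 1.5 times of the reported ones. With the replicate number as a block the counts were 11, 31 and 42 for sißCat-WT, sißCat-mut and sißCat-both against siCtrl, 28 and 34 for sißCat-mut and sißCat-both against sißCat-WT, 21 for sißCat-both against sißCat-mut and 24 for the departure from additivity, and the block changed no call of a named member. Shares of all genes called under the alternatives are not set beside these counts, so a change in a count cannot be read as particular to the members. The causes were not tested. Raw scanner signals were not used here, so signal over background was not examined.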
